A study of Mus musculus with 6 samples.

Results

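Genes that set how glucose enters a cell, how lactate leaves it and how much pyruvate reaches the mitochondria were followed in mouse macrophages exposed to ADP. They were taken by the gene name printed on the array, which gave 10 of the 21983 named genes, read by 16 of the array's 55681 probes: Slc2a1, Slc16a1, Slc16a3, Hk1, Hk2, Pfkfb3, Ldha, Pkm2, Pdk1 and Pdk4. The ADP group held 3 samples of bone marrow-derived macrophages of C57BL/6 mice stimulated with 100 µM ADP for 6 h, and the control group held 3 samples given a control treatment for the same 6 h. Both groups were grown from marrow in medium with serum and L929-conditioned medium, which supplies the growth factor M-CSF. Experiments were independent and used different donors, per the series' design text. The age and sex of the mice, and which arrays share a donor, are not given in the labels used here.

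Glucose enters macrophages mainly through the carrier encoded by Slc2a1, is trapped inside by hexokinases and is split to pyruvate by glycolysis. Pyruvate is then either reduced to lactate, which leaves the cell through proton-coupled monocarboxylate carriers, or oxidised in mitochondria by the pyruvate dehydrogenase complex, which pyruvate dehydrogenase kinases switch off. Inflammatory activation of macrophages is known for a shift towards lactate production, driven in part by the transcription factor HIF-1.

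One one-colour Agilent array was used per sample. On each, 50.3% to 51.9% of spots exceeded background clearly (the scanner's well-above-background flag), and none was saturated. A level below is a probe's log2 signal minus its array's 75th percentile, and a difference is ADP minus control on that scale. Slide 1 carried ADP 1 with controls 1 and 2, and slide 2 carried ADP 2 and 3 with control 3, so differences are also given blocked by slide and for either slide alone. Of the 11 macrophage marker genes on the array, 10 were well above background on all 6 arrays, among them Adgre1, Csf1r and Marco, and Cd163 was on none. The summed signal of that list, in units of the 75th percentile, was 1669 to 2176 with ADP and 1451 to 1856 in controls. Of 8 neutrophil and granulocyte precursor markers, 6 were well above background on all 6 arrays and Ngp on none. Their sum was 26.2 to 31.8 with ADP and 22.6 to 24.5 in controls, without overlap. Most of that sum was S100a8, at a mean level of 4.67 with ADP and 4.35 in controls. Of the 6 taken singly, 2 did not overlap between the groups, both higher with ADP, against 9.67% of all features. The summed T and NK cell, dendritic, mast, stromal and red cell precursor markers overlapped between the groups. The highest were dendritic markers, at 36.9 to 159 with ADP and 36.9 to 140 in controls. Nearly all of that sum was Siglech, at a mean level of 6.59 with ADP and 5.93 in controls. Its difference was 0.0061 when blocked by slide. The part of all these cell types in the results below was not tested. In bulk samples fewer cells of a type and less RNA per cell cannot be told apart.

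Slc16a3, the lactate exporter MCT4, read 2.40-fold higher with ADP. The kinase gene Pdk4 was well above background on all 3 control arrays and on no array of the ADP group. On this scale only a bound of at least 1.31-fold lower can be given for it. That bound did not hold under another background correction. Hk2 read 1.37-fold lower with ADP, and the glucose carrier gene Slc2a1, the pyruvate kinase gene Pkm2 and the lactate dehydrogenase gene Ldha read 1.17-fold, 1.19-fold and 1.33-fold higher. None of the 10 passed at a Benjamini-Hochberg adjusted p under 0.05 in limma, nor did any of the 19575 features tested (0%). At an unadjusted p under 0.05, Slc16a3 was higher, as were 6.55% of all features, and Hk2 was lower, as were 6.18% of all features (12.7% in either direction). Pdk4 also had such a p, but it entered the test through the control arrays alone and is not counted here or in the other counts of this paragraph. The groups did not overlap for Slc16a3 and Pkm2, higher with ADP, and for Hk2, lower with ADP, against 9.67% of all features higher and 9.72% lower (19.4% in either direction). Within both slides Slc2a1, Slc16a3, Pfkfb3, Ldha and Pkm2 read higher and Slc16a1, Hk2 and Pdk1 lower, while Hk1 differed in sign, against 29.7% of all features higher in both slides and 32.4% lower. Blocking by slide again left 0% of features past the adjusted threshold. At an unadjusted p under 0.05 it gave Slc2a1 and Slc16a3 as higher and Hk2 and Pdk1 as lower, against 10.8% and 13.6% of all features (24.3% in either direction). When intensity-trended, robust variances were used in the blocked fit, Slc16a3 was called higher (adjusted p = 0.0221, limma) and Hk2 lower (adjusted p = 0.0215), against 4.52% and 5.38% of all features (9.91% in either direction). None of the other genes was called there apart from Pdk4 (adjusted p = 0.0353 in limma). It is not counted, because its ADP signals were not above background and it entered through the control arrays alone.

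**Figure D1:**
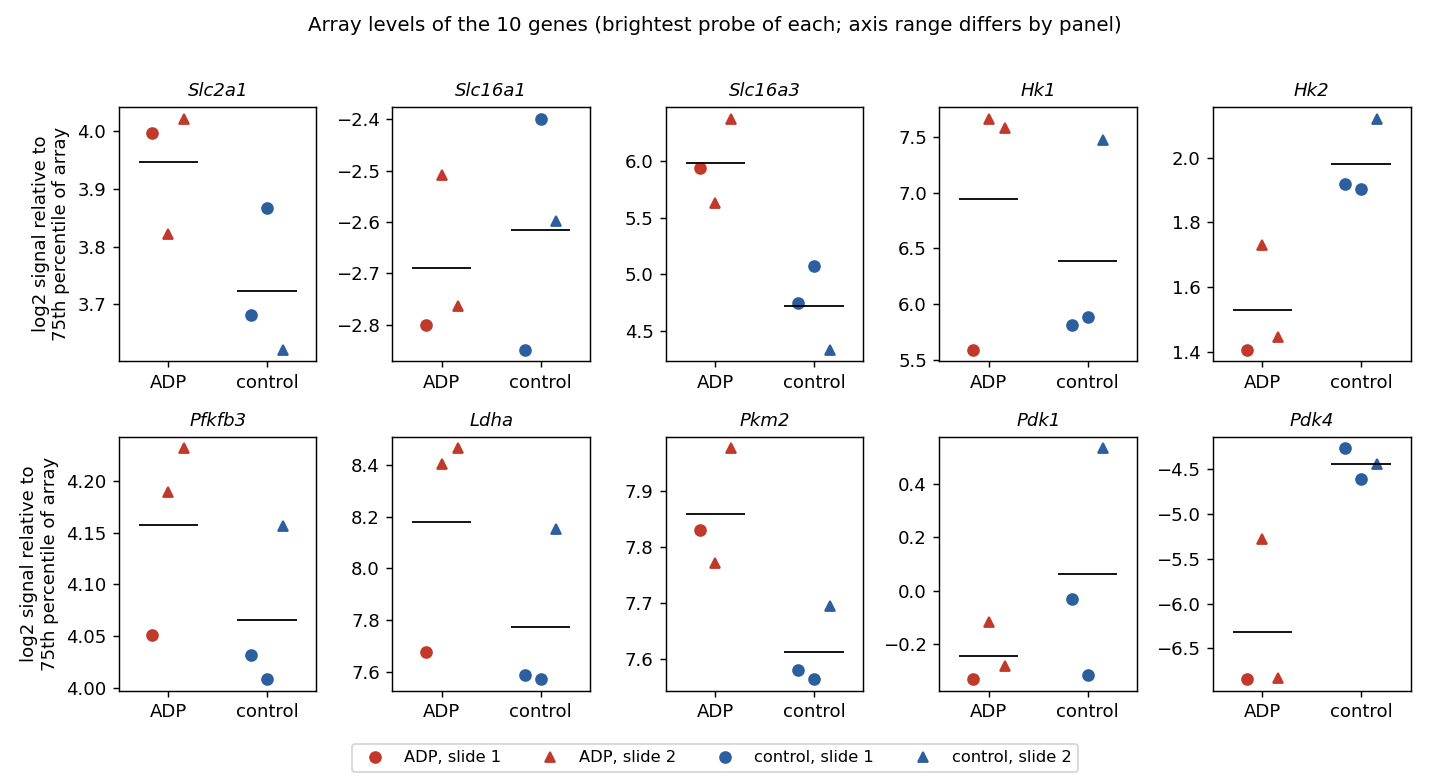
Levels of the 10 genes on each array, ADP left and control right in each panel, as log2 signal minus the array's 75th percentile. Each point is 1 array, circles are slide 1 and triangles slide 2, lines are group means, and the range of the vertical axis differs by panel. The groups do not overlap for Slc16a3, Hk2 and Pkm2, against 19.4% of all features in either direction, and Hk1 separates by slide. Pdk4 does not overlap either, but it was kept through the control arrays alone and is not counted.

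Slc2a1 encodes GLUT1, the main glucose carrier of macrophages. Its single probe (chromosome 4, 118809864 to 118809923, mouse build mm9) read 3.998, 3.82 and 4.02 with ADP, against 3.68, 3.87 and 3.62 in controls. The highest control, control 2, lay above the lowest ADP array, ADP 2, so the groups overlapped. The difference was 0.22 ± 0.12 (log2, SE, n = 3 arrays each, adjusted p = 0.510 in limma). Blocked by slide it was 0.26 ± 0.10 (adjusted p = 0.191). Slide 1 alone gave 0.22 and slide 2 alone 0.30.

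Hk1 and Hk2 encode the hexokinases that phosphorylate glucose and so keep it in the cell, Hk1 being the enzyme of most tissues and Hk2 the one known to respond to growth factors, insulin and hypoxia. Hk2 (chromosome 6, 82675056 to 82675115, mm9) read 1.41, 1.73 and 1.45 with ADP, against 1.92, 1.90 and 2.12 in controls. Every ADP array lay below every control array. The difference was -0.45 ± 0.13 (log2, SE, n = 3 arrays each, adjusted p = 0.285 in limma), and it was -0.52 ± 0.10 when blocked by slide (adjusted p = 0.0751). Within slides 1 and 2 it was nearly equal, at -0.50 and -0.53. Over 18 settings run for Hk2 the difference stayed between -0.55 and -0.37.

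Hk1 was read by 3 probes, which did not give the same picture. The brightest lies farthest 3′ (chromosome 10, 61731230 to 61731288, mm9) and read 5.59, 7.66 and 7.58 with ADP, against 5.81, 5.88 and 7.48 in controls. The arrays of slide 2 were high and those of slide 1 low in both groups. Slide 2 read 3.55-fold above slide 1 on this probe once the treatment was fitted, and only 0.237% of all probes tested had a slide difference larger in size. The pooled difference of 0.55 ± 0.69 (log2, SE, adjusted p = 0.784 in limma) became -0.05 ± 0.11 when blocked by slide (adjusted p = 0.814). Slide 1 alone gave -0.26 and slide 2 alone 0.15. The middle probe read 4.45, 4.43 and 4.63 with ADP, against 4.43, 4.44 and 5.05 in controls, and only control 3 stood apart there. The most upstream probe read -0.11, -0.18 and -0.42 with ADP, against -0.19, -0.03 and 0.05 in controls, with a difference of -0.18 ± 0.13 (adjusted p = 0.660). Neither upstream probe was called in any setting run on single probes.

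Pfkfb3 encodes the kinase that makes fructose 2,6-bisphosphate, the strongest activator of phosphofructokinase. Its brighter probe (chromosome 2, 11393453 to 11393512, mm9) read 4.05, 4.19 and 4.23 with ADP, against 4.03, 4.01 and 4.16 in controls. The groups overlapped, and the difference of 0.09 ± 0.11 (log2, SE, adjusted p = 0.774 in limma) was within the spread between arrays. Its dimmer probe lies upstream and is drawn over positions 11404189 to 11405602, a stretch far longer than its 60 bases, so that it crosses a splice junction. That probe read -1.82, -1.81 and -1.82 with ADP, against -1.90, -1.93 and -2.34 in controls. All ADP arrays lay above all controls there, with control 3 lowest. The difference was 0.24 ± 0.15 (adjusted p = 0.574 over single probes), with 0.10 within slide 1 and 0.53 within slide 2.

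Pkm2 is the array's name for Pkm, which encodes the muscle-type pyruvate kinases M1 and M2, made by alternative splicing, and the files do not say which of them the probe reads. The probe (chromosome 9, 59526867 to 59526926, mm9) read 7.83, 7.77 and 7.98 with ADP, against 7.58, 7.56 and 7.69 in controls. The groups did not overlap, although ADP 2 and control 3, from the same slide, were close. The difference was 0.25 ± 0.11 (log2, SE, adjusted p = 0.416 in limma) and 0.22 ± 0.09 when blocked by slide (adjusted p = 0.211). It was 0.10 with quantile normalization.

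Ldha encodes the lactate dehydrogenase subunit that favours the reduction of pyruvate to lactate. It was read by 3 probes on chromosome 7 (mm9), at 54103010 to 54103069, 54107294 to 54107353 and, farthest 3′, 54110937 to 54110996. The most upstream probe read 3.49, 3.08 and 3.16 with ADP, against 3.01, 2.98 and 2.76 in controls. The middle probe read 5.64, 5.67 and 5.82 with ADP, against 5.25, 5.35 and 5.40 in controls. On both of these probes every ADP array lay above every control. The 3′-most probe, the brightest, read 7.67, 8.40 and 8.47 with ADP, against 7.59, 7.57 and 8.15 in controls, and there control 3 of slide 2 lay above ADP 1 of slide 1.

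All 3 Ldha probes read higher with ADP. Their differences were 0.33 ± 0.15, 0.38 ± 0.11 and 0.41 ± 0.26 (log2, SE, from upstream to 3′ end, adjusted p = 0.449, 0.289 and 0.610 over single probes in limma). With the slide as a block they were 0.43 ± 0.08, 0.34 ± 0.09 and 0.19 ± 0.08 (adjusted p = 0.0818, 0.104 and 0.256). Both upstream probes were called higher with the slide block and trended, robust variances (adjusted p = 0.0241 and 0.0267), and the 3′-most probe was not (adjusted p = 0.0868). The slide difference was largest on the 3′-most probe, where slide 2 read 1.59-fold above slide 1, while it was 0.809-fold on the upstream and 1.08-fold on the middle probe. The gene-level value, 0.41, is that of the 3′-most probe, which was also the most moved by a single array, to 0.27 without ADP 3 and 0.66 without ADP 1.

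Some of the probes upstream of the brightest one are printed here, because the probes of Ldha, Hk1 and Pfkfb3 differed in level and in their slide difference. They are 60-base designed oligonucleotides, written 5′ to 3′ in the sense of the transcript.
Ldha most upstream probe A_55_P2141876: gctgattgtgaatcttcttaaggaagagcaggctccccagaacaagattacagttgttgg
Ldha middle probe A_55_P2141878: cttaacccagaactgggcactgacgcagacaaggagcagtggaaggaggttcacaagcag
Hk1 most upstream probe A_55_P2118843: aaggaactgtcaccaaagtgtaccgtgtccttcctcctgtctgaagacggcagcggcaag
Pfkfb3 upstream probe A_52_P362917: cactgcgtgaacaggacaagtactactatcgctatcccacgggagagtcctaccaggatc

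**Figure D2:**
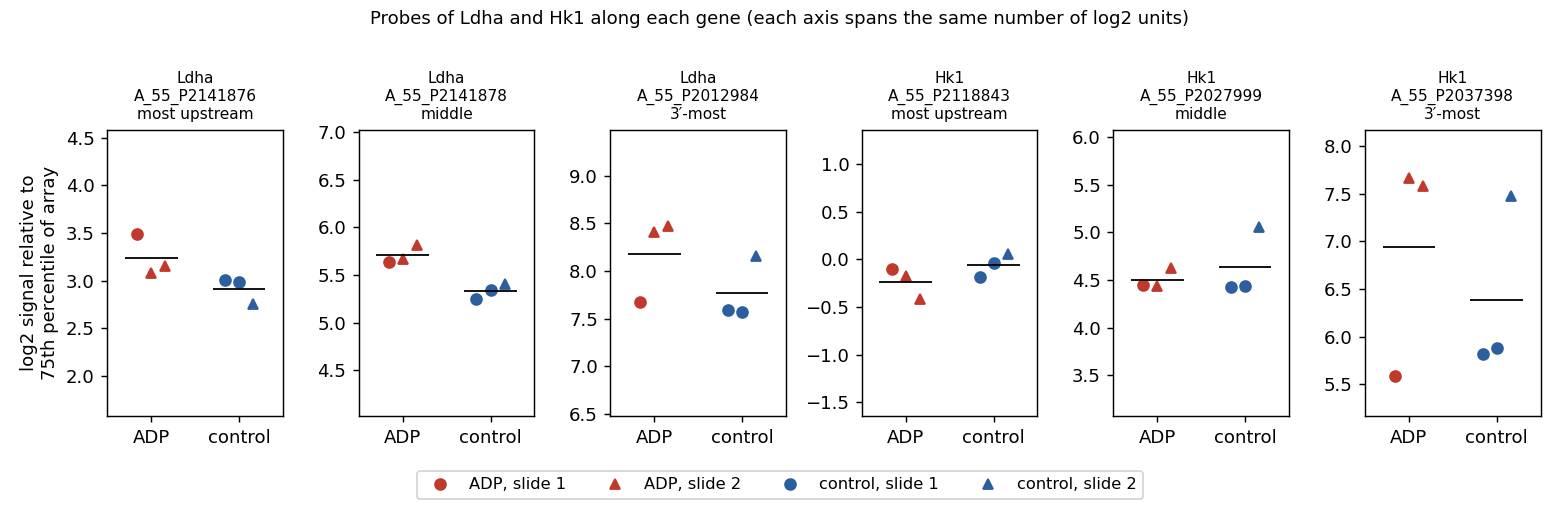
Levels of the 3 probes of Ldha and the 3 probes of Hk1, ordered from the most upstream to the 3′-most, as log2 signal minus the array's 75th percentile, with ADP left and control right. Points are arrays, circles slide 1 and triangles slide 2, and lines are group means. The 3′-most probe of each gene separates by slide, with Hk1 at 5.59 to 5.88 on slide 1 and 7.48 to 7.66 on slide 2.

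Slc16a3 encodes MCT4, the low-affinity carrier through which strongly glycolytic cells export lactate. Its brighter probe (chromosome 11, 120820023 to 120820082, mm9) read 5.94, 5.63 and 6.38 with ADP, against 4.75, 5.08 and 4.34 in controls. The second probe read 5.82, 5.61 and 6.33 with ADP, against 4.66, 4.96 and 4.23 in controls. Every ADP array lay above every control on both, but the probes share 53 of their 60 bases and are not independent readings. In the scanner's own units the brighter probe gave 27969, 26979 and 45677 with ADP, against 12221, 15677 and 11079 in controls.

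The difference of Slc16a3 was 1.26 ± 0.26 (log2, SE, n = 3 arrays each, adjusted p = 0.260 in limma), with means of 5.98 ± 0.38 with ADP and 4.72 ± 0.37 in controls (SD, n = 3 each). Blocked by slide it was 1.35 ± 0.26 (adjusted p = 0.0751), and the slides alone gave 1.03 and 1.67. Leaving out single arrays gave 1.07 (without ADP 3) to 1.44 (without control 2). Normexp background correction left it at 1.27. A permutation of 3 against 3 arrays cannot give a two-sided p under 0.1.

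Slc16a1 encodes MCT1, the more widely expressed carrier that moves lactate and pyruvate in either direction. Its probe (chromosome 3, 104462276 to 104462335, mm9) read -2.80, -2.51 and -2.76 with ADP, against -2.85, -2.40 and -2.60 in controls. The groups overlapped throughout, and the difference of -0.08 ± 0.15 (log2, SE, adjusted p = 0.873 in limma) was smaller than the spread between arrays and turned to 0.0024 in the unscaled value table. The 2 lactate carriers thus gave differences of 1.26 and -0.08, and the difference between them was not tested.

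Pdk1 and Pdk4 encode kinases that phosphorylate and switch off pyruvate dehydrogenase. Pdk1 is known as a HIF-1 target, and Pdk4 as a gene of fasting and fat oxidation under PPAR and FOXO factors. Pdk4 (chromosome 6, 5433441 to 5433500, mm9) read -6.84, -5.29 and -6.83 with ADP, against -4.27, -4.61 and -4.44 in controls. It was well above background on all 3 control arrays and on 0 of the 3 ADP arrays, with scanner signals of 3.97, 14.0 and 4.82 with ADP, against 23.6, 19.0 and 25.2 in controls. On this scale it was therefore at least 1.31-fold lower with ADP. The bound on an ADP array is its dimmest signal still well above background, or the probe's own where higher. This bound was not tested. The measured means were -6.32 with ADP and -4.44 in controls, and the measured difference had an adjusted p of 0.261 in limma. Within slides 1 and 2 the measured differences were -2.40 and -1.62. With normexp correction, which adds an offset to every signal, the difference was -0.27, or 0.83-fold, which falls short of that bound. The size of this difference, and the bound, thus depend on how background was treated.

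Pdk1 (chromosome 2, 71739688 to 71739747, mm9) read -0.33, -0.12 and -0.28 with ADP, against -0.03, -0.31 and 0.53 in controls. Control 3 was highest and control 2 lay among the ADP arrays. The difference of -0.31 ± 0.22 (log2, SE, adjusted p = 0.651 in limma) was -0.44 ± 0.16 when blocked by slide (adjusted p = 0.180). Slide 1 alone gave -0.16 and slide 2 alone -0.73. Without control 3 the pooled difference was -0.07. That array is the only control on slide 2, and slide 2 read 1.34-fold above slide 1 on this probe once the treatment was fitted. That slide value takes in control 3 itself. The ADP arrays of slide 2 read -0.12 and -0.28, against -0.33 for the ADP array of slide 1. The part of the array and that of the slide were not tested.

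**Figure D3:**
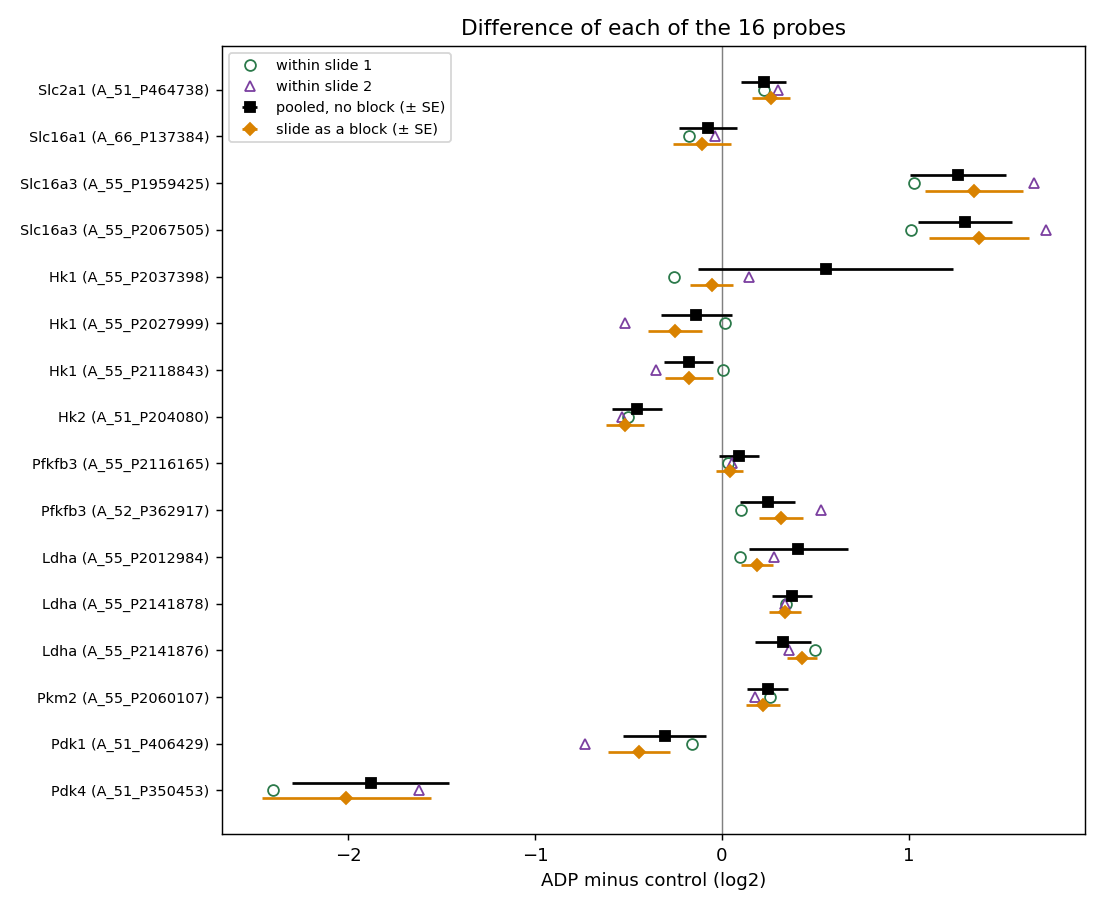
ADP minus control (log2) for each of the 16 probes, named by gene and probe. Squares are the pooled difference and diamonds the difference when blocked by slide, both with SE, and open circles and triangles are differences within slides 1 and 2. Pooled differences are 1.26 and 1.30 for the Slc16a3 probes and -0.45 for Hk2, and the brightest Hk1 probe goes to -0.05 with the block. The Pdk4 points rest on ADP signals not above background, for which only a bound of at least 1.31-fold lower on this scale can be given.

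The promoters of Slc16a3 and Ldha, which read higher with ADP, and of Hk2 and Pdk4, which read lower, were set side by side. The sequences are 300-base RefSeq windows of build GRCm38.p6, mostly upstream of an annotated start, and capitals mark ACGTG or GCGTG on either strand, the core bound by HIF factors. For Ldha the start with more matches of its pair is shown.
Slc16a3, chr11:120948817-120949116, plus strand: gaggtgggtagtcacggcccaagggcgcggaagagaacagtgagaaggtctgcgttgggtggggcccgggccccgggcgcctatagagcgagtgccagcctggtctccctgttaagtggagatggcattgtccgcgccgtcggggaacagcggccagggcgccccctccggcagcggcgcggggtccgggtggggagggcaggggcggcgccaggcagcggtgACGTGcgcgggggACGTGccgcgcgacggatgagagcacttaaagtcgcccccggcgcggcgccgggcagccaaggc
Ldha, chr7:46845554-46845853, plus strand: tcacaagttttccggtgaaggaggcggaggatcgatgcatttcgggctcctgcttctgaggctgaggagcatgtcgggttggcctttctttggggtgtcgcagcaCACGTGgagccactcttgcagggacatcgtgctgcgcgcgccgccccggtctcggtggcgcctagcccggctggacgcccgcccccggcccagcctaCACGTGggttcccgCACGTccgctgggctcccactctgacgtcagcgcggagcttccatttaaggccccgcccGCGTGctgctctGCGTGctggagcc
Hk2, chr6:82774405-82774704, minus strand: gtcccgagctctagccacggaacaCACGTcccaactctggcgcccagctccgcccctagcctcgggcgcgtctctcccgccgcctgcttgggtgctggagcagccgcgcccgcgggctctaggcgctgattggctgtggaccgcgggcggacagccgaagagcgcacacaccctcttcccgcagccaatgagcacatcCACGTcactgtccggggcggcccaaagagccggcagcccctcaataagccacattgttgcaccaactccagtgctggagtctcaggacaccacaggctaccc
Pdk4, chr6:5496229-5496528, minus strand: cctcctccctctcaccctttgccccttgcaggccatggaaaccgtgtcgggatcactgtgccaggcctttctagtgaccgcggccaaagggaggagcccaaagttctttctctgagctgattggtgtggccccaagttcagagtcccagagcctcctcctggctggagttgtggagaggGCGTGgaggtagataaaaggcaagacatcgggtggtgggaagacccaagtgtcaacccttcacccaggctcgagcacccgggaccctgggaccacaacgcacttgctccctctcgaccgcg

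The Ldha window held 7 matches, counted per strand, so that each of its 2 CACGTG palindromes counts as 2, and 0.301% of all 32851 windows held at least as many. The other Ldha window held 2. Slc16a3 and Hk2 held 2 matches each, and 20.6% of all windows held at least 2. Pdk4 held 1, and 43.8% of all windows held at least 1. Each of the 10 genes had a window with at least 1 match, including Slc16a1 with 5, and Hk1 with 5 and Pfkfb3 with 4 in one window each. These matches are a description of the letters, and the genes that read higher and those that read lower both held them.

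Array profiles were compared by distance, each centred on its own mean but not scaled, so a gene that varied widely lies far from one that varied little. The range over the arrays was 0.40 for Slc2a1 and 0.41 for Pkm2, but 2.04 for Slc16a3 and 2.57 for Pdk4, whose ADP signals were not above background. The distances therefore cannot show whether the 10 genes share 1 pattern. The nearest pair among the 10 genes was Slc2a1 and Pkm2, with a mean absolute difference of 0.092 (log2, 6 arrays), followed by Pkm2 and Pfkfb3. Slc16a3 was 0.51 from its nearest companion, Pkm2, and Pdk4 0.75 from Hk2. Among 13367 named genes outside the 10, the profile closest to Slc16a3 was that of the carbonic anhydrase gene Car15, at 0.048. The closest to Pdk4 was the cyclin D1 gene Ccnd1, at 0.22, and the closest to Hk2 was Plpp2, at 0.036. Hk1 was closest to the lysozyme gene Lyz1, at 0.059, Ldha to Snx20, at 0.025, and Pdk1 to Palm, at 0.032. Slc2a1 was closest to the cholesterol exporter gene Abca1, at 0.019, Pkm2 to Zdhhc12, at 0.011, Pfkfb3 to the ribosomal protein gene Rpl29, at 0.0094, and Slc16a1 to Olfr920, at 0.038.

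The genes around the 10 were read as 7 lists, described by counts and medians beside the median of all features, 0.0044 (-0.0086 when blocked by slide). The median of the 10 genes, Pdk4 included, was 0.16, with 6 above 0 and 4 below. It was -0.0062 when blocked by slide, where the bright Hk1 and Ldha probes shifted most. No gene of any list passed after adjustment in limma with untrended variances, pooled or blocked by slide.

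The other glycolytic enzymes read close to control. Of 16 measured, 11 were above 0 and 5 below, with a median of 0.08 (-0.05 when blocked by slide), and none had an unadjusted p under 0.05. Blocked by slide, 1 did, lower with ADP, against 13.6% of all features. It was the lactate dehydrogenase B gene Ldhb, named after its values were seen, at -0.29 (-0.14 pooled, trended-block adjusted p = 0.0507 in limma). Those with the smallest p were the muscle phosphofructokinase gene Pfkm at -0.26 ± 0.13 (log2, SE; -0.16 without control 3), Bpgm at 0.19 ± 0.11 and the phosphoglycerate kinase gene Pgk1 at 0.11 ± 0.10. Pgk1 turned to -0.03 with quantile normalization. Gapdh differed by 0.18 ± 0.18, and by 0.04 when blocked by slide and -0.0080 with quantile normalization. The controllers of fructose bisphosphate gave a median of -0.10 over 4 measured genes, with Pfkfb2 at -0.14 ± 0.10, Pfkfb1 at -0.25 ± 0.21 (0.24 within slide 1) and Tigar at -0.06 ± 0.09 (0.02 in the unscaled value table).

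Other sugar and monocarboxylate carriers read lower for the most part, unlike Slc2a1 and Slc16a3. Of 15 measured genes of this list, 12 were below 0, all of them carriers. The 3 above 0, Bsg and Txnip among them, act on carriers and are not carriers themselves. The median of the list was -0.25 (-0.36 when blocked by slide). At an unadjusted p under 0.05, 2 genes passed, both lower, against 6.18% of all features. Slc16a10, an aromatic amino acid carrier of the MCT family, read 3.34 with ADP and 3.91 in controls, a difference of -0.58 ± 0.14 (log2, SE, adjusted p = 0.261 in limma). Slc2a3, the glucose carrier GLUT3, read -0.82 with ADP and -0.25 in controls, a difference of -0.57 ± 0.17 (adjusted p = 0.286), and the urate carrier gene Slc2a9 differed by -0.35 ± 0.15 (-0.21 without ADP 1). Blocked by slide, 10 read lower and 2 read higher with an unadjusted p under 0.05, against 13.6% and 10.8% of all features. Trended, robust variances in that fit called 7 lower and 1 higher, against 5.38% and 4.52%. The gene called higher was Txnip, which encodes a protein that lowers glucose uptake, at 0.31 ± 0.25 pooled, 0.52 ± 0.09 when blocked by slide, and 0.50 and 0.54 within slides 1 and 2. Its pooled value was 0.10 without control 3 and 0.11 without ADP 1, each the only array of its group on its slide. Bsg, whose product basigin carries MCT1 and MCT4 to the membrane, differed by 0.19 ± 0.11 (0.12 without ADP 1).

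Genes of pyruvate dehydrogenase and mitochondrial pyruvate entry had 10 of 12 measured members above 0. Their median was 0.08 (0.06 when blocked by slide), and none had an unadjusted p under 0.05 when pooled. Blocked by slide, 1 did, higher with ADP, against 10.8% of all features. It was the pyruvate dehydrogenase kinase gene Pdk3, named after its values were seen, at 0.27 (0.18 pooled). The mitochondrial pyruvate carrier genes Mpc1 and Mpc2 differed by 0.14 ± 0.11 and 0.16 ± 0.12 (log2, SE), and the dehydrogenase subunit gene Pdhb by 0.13 ± 0.10 (-0.0083 within slide 1). The pentose phosphate list split evenly, 4 above 0 and 4 below with a median of 0.01. Taldo1 differed by 0.23 ± 0.14, Rpe by -0.28 ± 0.24 and Pgd by 0.10 ± 0.14 (-0.02 with quantile normalization). Pgls, named after its values were seen, was the 1 gene of the list called when the blocked fit had trended, robust variances (adjusted p = 0.0494 in limma). It read lower, at -0.13 pooled and -0.28 blocked, and 5.38% of all features were called lower in that fit.

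Of 21 measured genes of the HIF system, 14 were above 0 and 7 below, with a median of 0.13 (0.10 when blocked by slide), and 6 passed an unadjusted p under 0.05, of which 5 read higher and 1 lower, against 6.55% and 6.18% of all features. Hif1a, which encodes the oxygen-regulated subunit of HIF-1, read 3.35 with ADP and 2.76 in controls, a difference of 0.59 ± 0.22 (log2, SE, adjusted p = 0.344 in limma), with 0.67 and 0.82 within slides 1 and 2. The growth factor gene Vegfa differed by 1.39 ± 0.34 and Ankrd37 by 0.50 ± 0.15, while the stress gene Ndrg1 differed by -0.71 ± 0.21. The remaining 2 of the 5 higher genes, named after their values were seen, were Adm at 0.45 ± 0.15 and Ddit4 at 0.90 ± 0.32. With the slide block and trended, robust variances, Hif1a and Vegfa were called higher and Ndrg1 lower (adjusted p = 0.0210, 0.0210 and 0.0319), against 4.52% and 5.38% of all features. Among the 10 genes, Slc2a1, Slc16a3, Hk1, Pfkfb3, Ldha and Pkm2 were above 0 when pooled, and Slc16a1, Hk2, Pdk1 and Pdk4 below. Of these, Hk1 turned to -0.05 when blocked by slide. The part of HIF in these differences was not tested.

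PPAR and FOXO factors and target genes that they share with Pdk4 had 12 of 17 measured members below 0, with a median of -0.10 (-0.12 when blocked by slide), and 3 passed an unadjusted p under 0.05, all lower, against 6.18% of all features. Pparg, which encodes a lipid-sensing nuclear receptor, read 1.72 with ADP and 2.13 in controls, a difference of -0.40 ± 0.11 (log2, SE, adjusted p = 0.268 in limma). The fatty acid oxidation gene Cpt1a differed by -0.44 ± 0.14 and the fatty acid-binding protein gene Fabp4 by -0.37 ± 0.15. With the slide block and trended, robust variances 5 were called lower and 0 higher, against 5.38% and 4.52% of all features. They were these 3 and, named after their values were seen, Angptl4 and Plin2, at pooled differences of -0.42 ± 0.19 and -0.26 ± 0.13 (-0.25 and -0.15 without control 3). Foxo3, a factor on the list named after its values were seen, differed the other way, by 0.22 pooled and 0.33 when blocked by slide, and was not called.

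**Figure D4:**
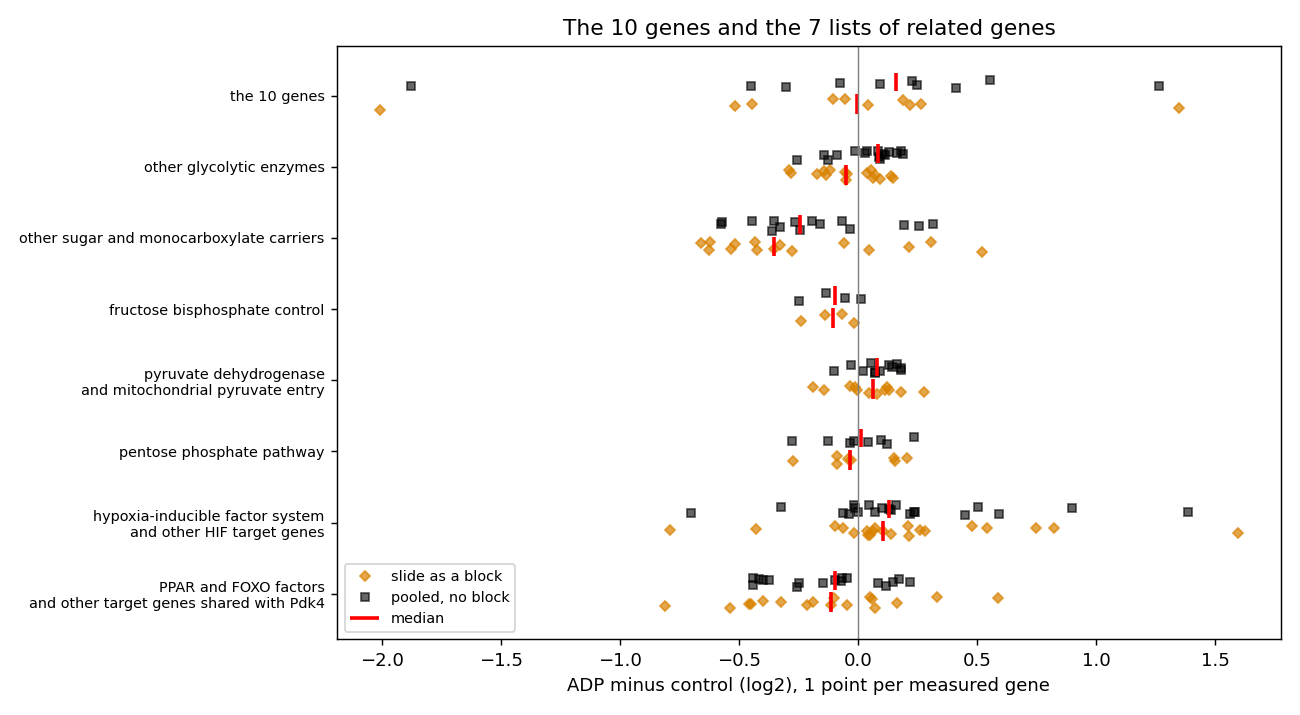
ADP minus control (log2) for the 10 genes and for the measured genes of the 7 related lists, 1 point per gene. Squares are pooled differences, diamonds differences when blocked by slide, and red bars the medians. The list of other carriers, which includes some genes that act on carriers, has a median of -0.25 and the HIF list one of 0.13. Slc16a3 lies at 1.26. The leftmost gene, Pdk4, rests on ADP signals not above background.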

How the data were processed

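RNA of 6 macrophage samples was measured on 6 one-colour Agilent arrays. The deposited files give spot intensity from Agilent Feature Extraction 10.7.1.1, per the file headers and the submitters' processing notes, with spatial detrending and background subtraction within the array and no scaling between arrays. Well-above-background and outlier flags (score 0 or 1) are those of the deposited files. The deposited value table held the same intensity, within 0.001 log2 for 100% of 55681 probes on each array.

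Control spots and spots flagged as outliers were left out, spots of a probe were averaged, and the 75th percentile of each array was subtracted from the log2 signal. A probe was kept when well above background on all 3 arrays of a group, which kept 26587 probes, all 16 of these genes among them. A gene was read by its kept probe with the highest mean. Names were updated through a RefSeq table of GRCm38.p6. Groups were compared with limma 3.58.1 (lmFit, eBayes) in R 4.3.3, two-sided, over 19575 features, with Benjamini-Hochberg adjustment at 0.05, and the fit was tested on simulated data. Alternatives were normexp correction, quantile and median scaling, the unscaled value table, other filters and probe rules, trended and robust variances, slide and replicate blocks, and leaving out each array; the slide block on single probes was added after the data were seen. Single probes other than a gene's brightest come from the same fit over all kept probes.

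The genes, lists and settings were chosen with earlier results of these data known. Named are the 10 genes, the 3 of each list with the smallest p, and Hif1a, Bsg, Txnip, Gapdh, Mpc1 and Mpc2. Ldhb, Pdk3, Pgls, Adm, Ddit4, Angptl4, Plin2 and Foxo3 were named after their values were seen. One of the marker lists is not reported here. Probe coordinates are the files', on mm9, and exon or UTR annotation of that build was not used here.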

Additional observations from a re-analysis of the deposited data

How the results depend on the processing

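The number of features called was 0 in every setting without a slide block and in the slide-blocked settings with untrended variances. It was 1939 with the slide block and trended, robust variances, and 2181 with that setting on single probes, which was added after the data were seen. Leaving out any 1 array gave 0. Slc2a1, Slc16a3, Hk2, Pfkfb3, Ldha, Pkm2 and Pdk1 kept their direction in every setting run. Pdk4 also read lower wherever it had a value, but it passed the filter through the control arrays alone. It had no value where probes had to be well above background on all 6 arrays, and normexp correction left -0.27. Slc16a1 turned to 0.0024 in the unscaled value table and ranged from -0.191 to 0.033 when single arrays were left out (0.033 without control 2). Hk1 turned to -0.055 with the slide block, with untrended or trended variances, to -0.093 with the block and quantile normalization, and to -0.26 within slide 1. Its middle and most upstream probes gave -0.14 and -0.18 pooled and -0.25 and -0.17 with the block. Of the other named genes, Pgk1, Gapdh and Pgd turned to -0.030, -0.0080 and -0.016 with quantile normalization, Gapdh to -0.022 with that and the slide block, and Tigar to 0.022 in the value table. Within slide 1, Gapdh gave -0.0067, Pfkfb1 0.24 and Pdhb -0.0083, and Pgls ranged from -0.226 to 0.018 when single arrays were left out (0.018 without control 3, 0.017 without ADP 1). The cause was not tested. Arrays with the same replicate number had correlations of 0.42, -0.40 and 0.43 over all features. Pairs 1 and 3 share a slide and pair 2 does not. Every pair of an ADP and a control array on the same slide correlated positively, and every pair across slides negatively. These correlations therefore cannot show whether the numbers pair the samples. With the replicate block 0 features were called, and the adjusted p of Slc16a3, Hk2 and Pdk4 was 0.374 each. The number of arrays limits precision, and for Pdk4 the signal over background does.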
